A study of Mus musculus with 12 samples.

Results

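Loss of the coactivators CBP and p300 was compared with their presence in mouse embryonic fibroblasts (MEFs) that had all been given the iron chelator 2,2'-dipyridyl (DP). The comparison used the 6 DP arrays among the 12 of the series, chosen by their titles: CBP/p300 null lines 1, 5 and 6 (dKO) against wild-type lines 3, 4 and 5. It covered 16328 autosomal genes, each read by a probe set listed for exactly 1 gene symbol. The other 6 arrays carry RNA of the same lines after the ethanol vehicle and serve below to show where the genotype difference depended on the treatment.

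The dKO cells came from MEFs homozygous for conditional alleles of both coactivator genes, and the wild-type cells carried neither. Both genotypes were C57Bl/6 x 129Sv F1, primary, from e14.5 embryos, and used at passage 4. The control group shares the Cre adenovirus (MOI 100), which was left on both genotypes for 16 h at 3% oxygen. A further 48 h at 3% oxygen preceded 24 h of normoxia, throughout with 5% CO2. DP at 100 µM, or ethanol, was present for the last 3 h. The labels number the MEF lines but do not say that each came from its own embryo, so p-values measure the spread between 3 lines per genotype. The extent of deletion in each culture is not stated in the labels.

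CBP and p300 are related lysine acetyltransferases that are recruited to enhancers and promoters by many transcription factors, acetylate histones there and bridge to the transcription machinery. Hypoxia-inducible factor (HIF) is one such partner. Its alpha subunit is destroyed in normal oxygen after hydroxylation by iron-dependent enzymes. An iron chelator such as DP blocks those enzymes, so HIF accumulates and switches on genes of glucose uptake, glycolysis, angiogenesis and pH control. MEFs are primary connective-tissue cells whose known products include collagens, proteoglycans, matrix proteases and growth factors.

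Values are log2 RMA summaries made by the authors, and every difference below is the dKO mean minus the wild-type mean on the log2 scale, ± its standard error as moderated by limma, with 3 lines in each group. Genes with an adjusted p (Benjamini-Hochberg, over every gene on the array) below 0.05 are termed called. The probe set for Crebbp, which encodes CBP (chromosome 16), read 8.54, 8.35 and 8.21 in wild-type lines 3, 4 and 5 and 7.69, 7.62 and 7.51 in dKO lines 1, 5 and 6. The groups did not overlap, and the fall was -0.76 ± 0.10 (adjusted p 0.000471). The labels do not place its probes relative to the deleted exons, so the size of the fall is no measure of the deletion, and the gene for p300 was not analysed here. Array medians over all probe sets ran from 3.87 to 3.98. Over 17097 genes, the mean correlation of each DP array with the others of its genotype was 0.996 to 0.997. Xist, expressed from an inactive X chromosome, read 10.5 to 10.7 in wild type and 4.09 to 4.79 in dKO, while Y-linked Eif2s3y read 2.72 to 3.29 and 8.19 to 8.93. Sex and genotype therefore cannot be told apart, and X- and Y-linked genes are left out. The 3' minus 5' signal of the beta-actin control probe sets was 0.28 to 0.38 in wild type and 0.48 to 0.60 in dKO. This sign of RNA or labelling quality separated the genotypes, whereas the same measure for GAPDH overlapped (0.04 to 0.17 against 0.10 to 0.19). For the transferrin receptor control it overlapped too, with the lower range in dKO, opposite to beta-actin (0.13 to 0.48 against -0.36 to 0.20). The part of these measures in the results was not tested.

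Under DP, 7130 of the 16328 autosomal genes were called, or 43.7%. Of these, 3866 (23.7%) were higher and 3264 (20.0%) were lower in dKO. The dKO and wild-type values did not overlap for 8825 genes (54.0%). In both genotypes 3482 genes (21.3%) were at the level of the blank control probe sets, and 143 of them were called. The shares of all autosomal genes include them, so the called share was higher among genes above that level. Most members of each list below lie above it. Most calls were small, with a median absolute difference of 0.60 among called genes. Larger changes leaned downward: 692 genes (4.24%) rose and 979 (6.00%) fell at least 2-fold, 76 (0.465%) rose and 279 (1.71%) fell at least 4-fold, and 15 (0.0919%) rose and 65 (0.398%) fell at least 8-fold. The genes that fell at least 2-fold had a median level of 7.73 in wild type and 5.81 in dKO, and those that rose at least 2-fold 6.04 and 7.48, a contrast that choosing genes by their change fixes in part. The median difference over all autosomal genes was -0.01.

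**Figure D1:**
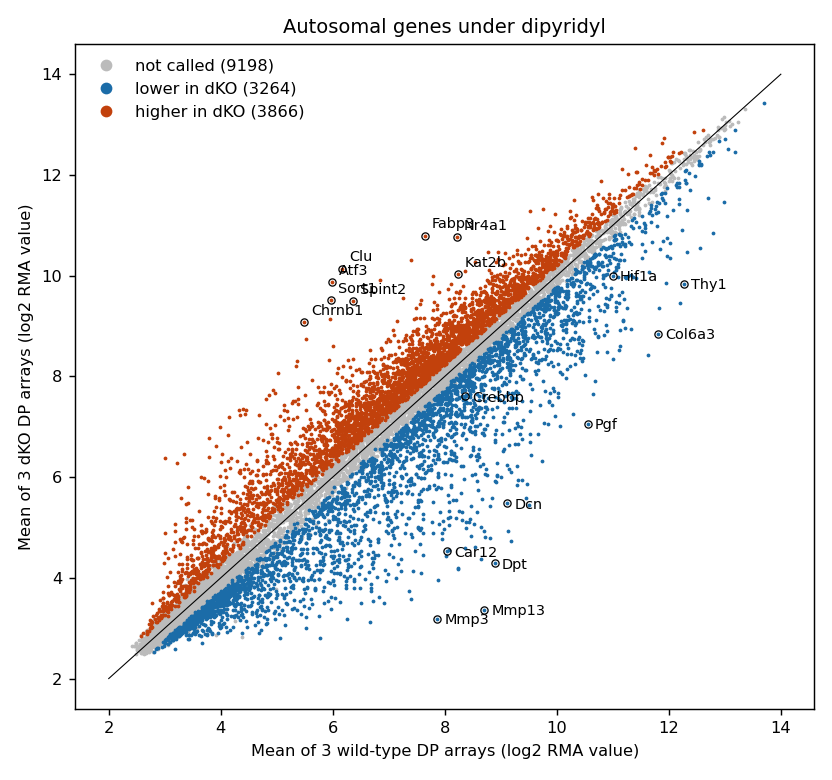
Mean log2 RMA value of 3 dKO DP arrays (vertical axis) against the mean of 3 wild-type DP arrays (horizontal axis), 1 point per autosomal gene, with genes called lower in dKO in blue (3264), higher in orange (3866) and not called in grey (9198); the line marks equal values. Mmp13, Mmp3 and Dpt lie farthest below the line, and Clu, Atf3, Sort1 and Chrnb1 farthest above it.

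The largest falls were those of the matrix metalloproteinase genes Mmp13 and Mmp3. Mmp13, the collagenase that cuts fibrillar collagen, read 8.78, 8.31 and 9.03 in the wild-type lines and 3.26, 3.54 and 3.31 in the dKO lines. That is a gap of over 4 log2 units with no overlap, and a fall of -5.34 ± 0.17 (40.4-fold, adjusted p 7.77e-07). Mmp3, stromelysin, read 7.95, 7.31 and 8.34 in wild type and 3.39, 3.06 and 3.12 in dKO, a fall of -4.68 ± 0.23 (adjusted p 3.94e-06). The dKO mean of Mmp3 lay within the range of the blank control probe sets, so its change is understated. The dKO values of Mmp13 lay close to the upper end of that range (95th percentile 3.35 to 3.38 on the dKO arrays). The size of its fall may therefore be understated too. Mmp13 and Mmp3 lie close together on chromosome 9. Their proximal promoters, as RefSeq gives them in GRCm38.p6, are shown because both genes lost most of their signal. Each holds 1 match to the AP-1 motif TGAGTCA, the letters bound by Fos and Jun dimers, and 1 to the TATA box TATAAA. Letters were searched on both strands and matches are in capitals, with 5' on the left of the gene's own strand. The Mmp13 stretch is chr9:7272264-7272513 and the Mmp3 stretch chr9:7445572-7445821, both on the plus strand and ending at the base before the transcript start.
Mmp13: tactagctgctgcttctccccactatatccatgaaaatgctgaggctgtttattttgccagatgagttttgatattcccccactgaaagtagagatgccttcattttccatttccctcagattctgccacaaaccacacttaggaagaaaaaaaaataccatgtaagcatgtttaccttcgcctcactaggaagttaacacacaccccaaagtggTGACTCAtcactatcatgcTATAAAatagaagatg
Mmp3: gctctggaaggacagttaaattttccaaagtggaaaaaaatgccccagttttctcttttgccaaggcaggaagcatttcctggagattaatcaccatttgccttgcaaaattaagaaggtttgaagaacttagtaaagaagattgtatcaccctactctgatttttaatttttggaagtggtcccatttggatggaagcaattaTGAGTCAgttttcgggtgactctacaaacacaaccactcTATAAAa
The AP-1 match starts at -35 in Mmp13 (read on the opposite strand) and at -46 in Mmp3, counted from the transcript start. Over 300-base windows that also take in the 50 bases after the start, 4.56% of all 16309 windows of autosomal genes hold the AP-1 letters and 9.92% hold TATAAA. The shares were 7.52% and 18.1% among 226 windows of genes that fell at least 4-fold, and 3.28% and 11.5% among 61 windows of genes that rose at least 4-fold. These shares are a description, and a match is not a bound site.

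The other genes among the 15 largest falls include several that encode matrix proteins, along with genes of other kinds. Dpt, which encodes the collagen-binding protein dermatopontin, read 8.84, 8.85 and 8.98 in wild type and 4.39, 4.47 and 4.00 in dKO (-4.60 ± 0.13, adjusted p 6.11e-07). Col5a3, a chain of fibrillar collagen V, read 8.81, 8.52 and 8.60 against 4.37, 4.37 and 4.38 (-4.28 ± 0.09, adjusted p 2.29e-07), the tightest of these groups. Tgfbi, a matrix protein induced by TGF-beta, read 9.38, 9.31 and 9.81 against 5.60, 5.94 and 4.79 (-4.06 ± 0.27). Lack of overlap between the groups was a condition for entering this list of 15. Pcolce2 (-3.90), which aids the processing of procollagen, and Csgalnact1 (-4.01), which starts chondroitin sulfate chains, fell by a like amount. So did Pla2g7 (-4.45), a phospholipase that inactivates platelet-activating factor, Dkk2 (-4.05), a secreted Wnt modulator, and Ppbp (-3.92), a chemokine precursor. Ly6c1 (-4.19), a surface antigen, Stmn2 (-4.06), a microtubule regulator, and Serpinb9b (-3.93), a serpin, complete the list with Kif26b and Ugt1a6a. Ugt1a6a (-3.82) encodes a glucuronosyltransferase that shares exons with its neighbours, so its signal may not be its own. Kif26b, a kinesin-related gene, showed the widest spread, at 6.26, 6.23 and 4.24 in dKO lines 1, 5 and 6 against 9.27 to 9.56 in wild type (-3.87 ± 0.48, adjusted p 0.000272).

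**Figure D2:**
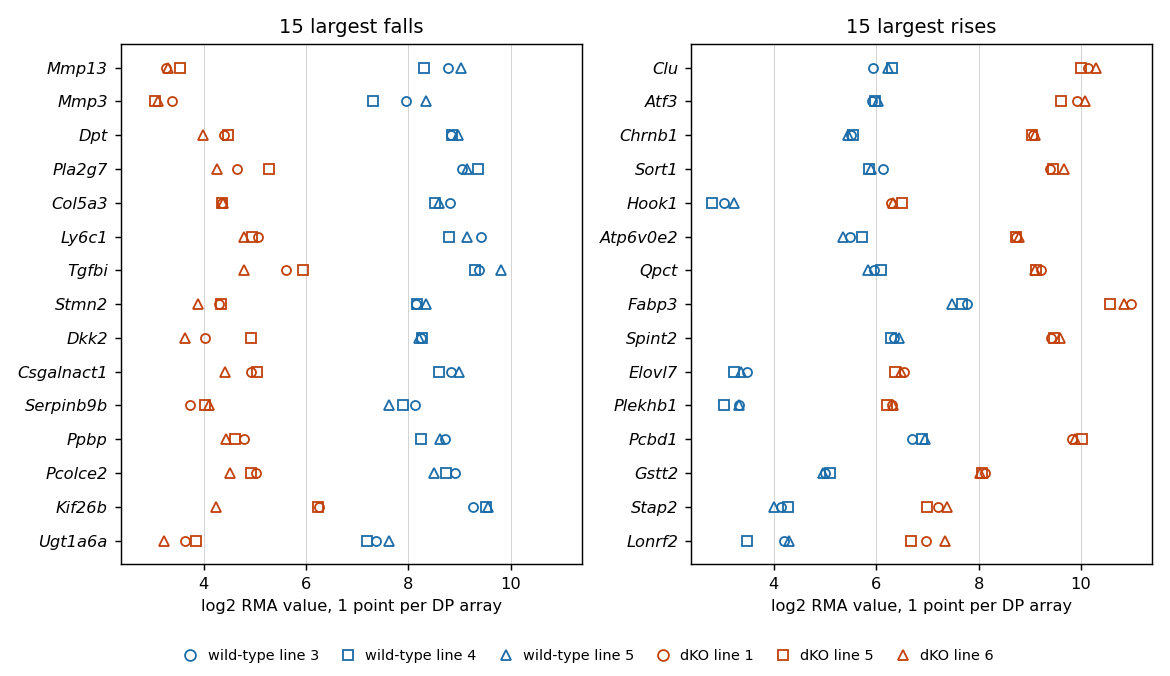
Log2 RMA value on each of the 6 DP arrays (horizontal axis, 1 symbol per array) for the 15 genes with the largest falls (left) and the 15 with the largest rises (right) in dKO, wild-type lines in blue and dKO lines in orange. Only genes whose groups do not overlap could enter either list. For Kif26b, dKO line 6 (triangles) is set apart, at 4.24 against 6.26 and 6.23.

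Matrix genes were lower as a class. No gene on the list of collagens and other matrix proteins rose, 26 of 29 fell and 19 fell at least 2-fold, with a median of -1.48. The 3 chains of collagen VI, the beaded filament around cells, were among the 4 largest falls: Col6a3 by -2.96 ± 0.24, Col6a2 by -2.67 ± 0.16 and Col6a1 by -2.47 ± 0.13. Col1a1, the main chain of collagen I, read 12.07, 12.02 and 12.00 in wild type and 10.34, 10.39 and 10.32 in dKO (-1.68 ± 0.07, adjusted p 1.98e-06). It stayed above 10 in every dKO line, while Sparc differed by -0.28, a call lost with median centring (adjusted p 0.0849), and Col12a1 (0.09) and Lamc1 (-0.05) were not called. Thbs2 (-2.59), a thrombospondin, Fbn2 (-2.25), a microfibril protein, and Eln (-1.48), elastin, also fell. Among 12 small leucine-rich proteoglycans, which bind collagen fibrils, 8 fell and none rose (median -1.29). Dcn, decorin, read 8.88, 9.07 and 9.38 in wild type against 5.46, 5.79 and 5.19 in dKO (-3.63 ± 0.17), and Lum, lumican, 8.12, 8.04 and 9.24 against 4.85, 5.30 and 4.32 (-3.65 ± 0.34). Both were far apart in every pair of lines. The 4 members that were not called, Kera, Chad, Ecm2 and Epyc, differed by -0.04 to 0.15. Because whole cultures were measured, fewer cells of a type and less RNA per cell cannot be told apart here or below.

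Proteases and their inhibitors fell together. Of 20 matrix proteases and inhibitors, 18 fell, none rose and 15 fell at least 2-fold (median -1.53). Besides Mmp13 and Mmp3, these were Mmp10 (-3.05), a stromelysin in the same cluster, the gelatinases Mmp2 (-1.74) and Mmp9 (-1.27), the plasminogen activators Plau (-2.07) and Plat (-1.77), and Adamts12 (-2.04). The inhibitor Timp3 fell by -3.05 ± 0.11 and Timp2 by -1.21, so the fall was not restricted to the enzymes. Of 15 contractile genes and targets of serum response factor, 14 fell and 1, Myh10 (-0.01), was not called (median -0.82). Cnn1, calponin, read 11.17, 11.26 and 11.14 against 9.30, 9.24 and 8.73 (-2.10 ± 0.15). Acta2, smooth muscle actin, fell only from 12.99 to 13.14 in wild type to 12.32 to 12.62 in dKO (-0.54 ± 0.10, adjusted p 0.00297).

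Signalling genes of the mesenchyme followed. In the TGF-beta and BMP pathway 16 of 26 fell and 4 rose (median -0.96). The falls included ligands (Inhba -2.06, Tgfb3 -1.55, Bmp4 -1.47), the BMP antagonist Grem1 (-3.45 ± 0.28), the receptors Tgfbr3 (-1.87) and Tgfbr2 (-0.76), and the target genes Id3 (-2.76 ± 0.12), Id1 (-2.11) and Smad7 (-1.35). The 4 that rose were Bmpr2 (0.72), Skil (0.49), Smad5 (0.43) and Smad1 (0.22), a receptor, a repressor and signal transducers. None of these 4 calls held in every alternative: Bmpr2 and Skil lost it in a fit of all 12 arrays (adjusted p 0.072 and 0.118), Smad1 with cyclic loess (0.395), and Smad5, of which 1 probe set was called lower, as a mean over its probe sets (0.115). In the Wnt pathway 16 of 24 fell and 3 rose (median -0.83). Secreted members led the falls, with Dkk2, Wnt4 (-2.70 ± 0.13), Ccn4 (-2.41 ± 0.21), Sfrp1 (-1.96) and Wnt5a (-1.61), and so did Apcdd1 (-2.29), an inhibitor at the cell surface. The co-receptors Lrp6 (0.52) and Lrp5 (0.41) and the transducer beta-catenin (Ctnnb1, 0.32) rose, but in a fit of all 12 arrays Lrp6 and Lrp5 were not called (adjusted p 0.0642 and 0.112), and as a mean over its probe sets neither was Ctnnb1 (0.178). In the Notch pathway 8 of 15 fell (53.3%, against 20.0% of all autosomal genes) and none rose (median -0.81). They were the target genes Hey1 (-2.61 ± 0.11), Hes1 (-2.05 ± 0.15), Hey2 and Nrarp, the ligand Jag1 (-1.57), the receptors Notch3 (-1.32) and Notch1 (-0.91), and Rbpj (-1.03), the DNA-binding partner of Notch.

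All 10 insulin-like growth factor genes measured were called, 9 of them lower (median -1.23). Igfbp4, a binding protein, read 9.69, 9.59 and 10.31 in wild type and 7.55, 7.56 and 7.41 in dKO (-2.36 ± 0.18). The ligands Igf2 (-1.54) and Igf1 (-1.49) and the adaptor Irs1 (-1.62) fell, whereas the calls of the receptors Igf1r (-0.24) and Insr (0.33) did not hold. In a fit of all 12 arrays their adjusted p were 0.192 and 0.178, and the mean over the probe sets of Insr, of which 1 was called lower, was -0.10. Of 21 other growth factors and receptors 13 fell and 1 rose (median -0.48). Pdgfrb, the PDGF receptor of mesenchymal cells, fell by -2.66 ± 0.24, Fgf7 by -2.13, Ptn by -1.95 and Egfr by -1.79, while Mdk, the midkine relative of Ptn, rose by 1.84. Among mesenchymal transcription factors 12 of 23 fell (52.2%, against 20.0% of all autosomal genes) and 1 rose (median -0.41). Twist2 read 10.59, 10.78 and 10.67 against 7.99, 8.03 and 7.71 (-2.77 ± 0.11). Prrx2 (-2.90), Snai1 (-2.40), Prrx1 and Runx1 (both -2.21) also fell, whereas Twist1, the close relative of Twist2, read 8.30 to 8.39 in wild type and 8.17 to 8.31 in dKO and was not called (-0.11, adjusted p 0.299). Msx1 rose (0.90). Hox genes, which record position along the body axis, split: 10 of 26 fell and 5 rose (median -0.10), from Hoxa11 (-1.30) and Hoxc8 (-0.90) to Hoxd4 (1.24) and Hoxd9 (1.31). The Hox shares were 38.5% lower and 19.2% higher, against 20.0% and 23.7% of all autosomal genes.

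**Figure D3:**
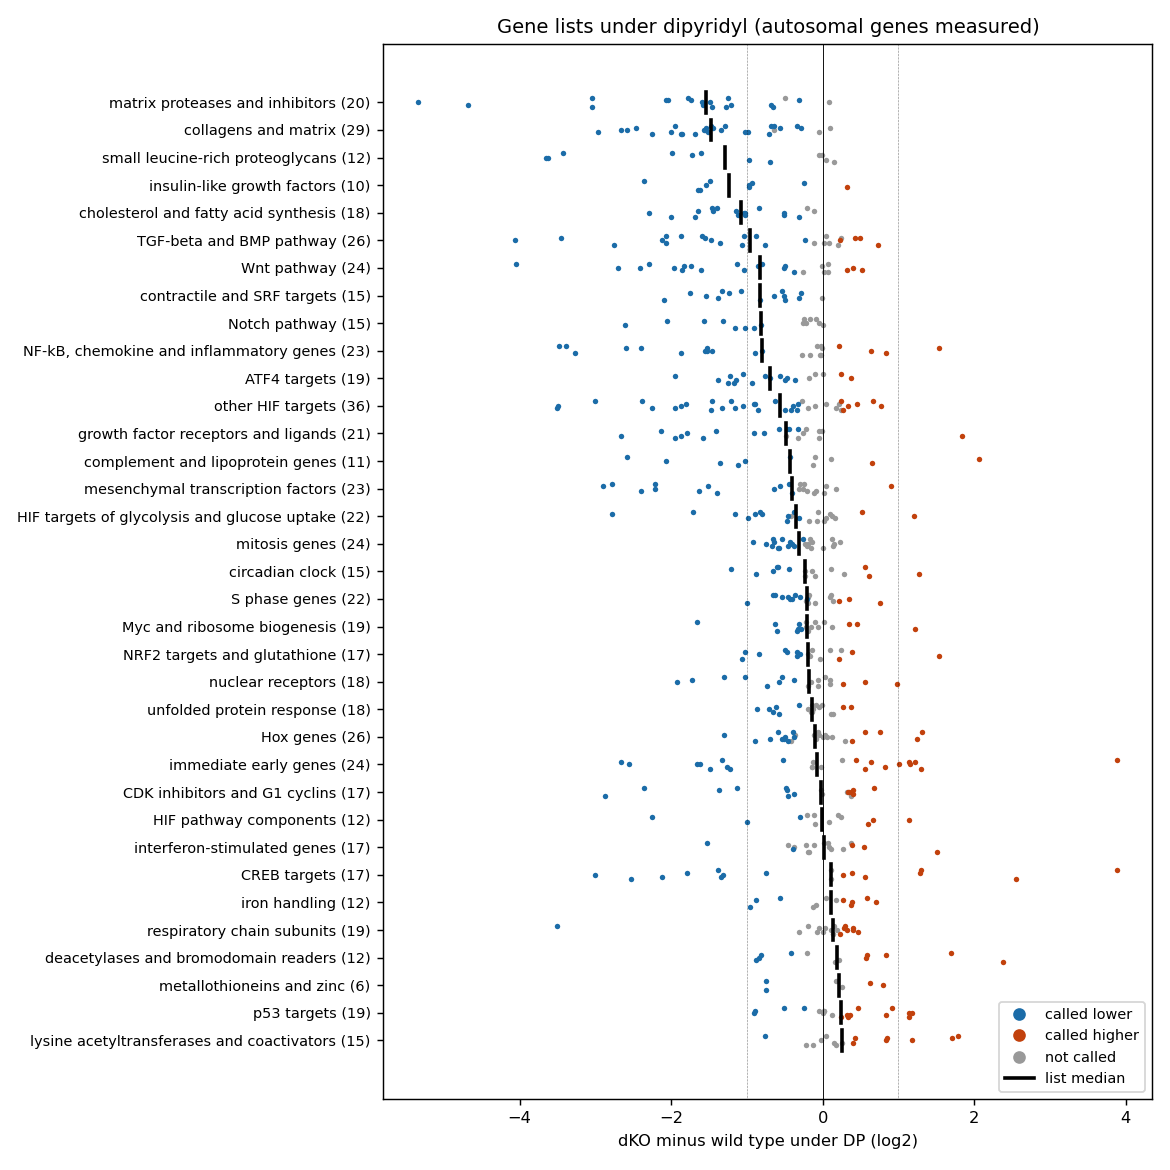
Difference dKO minus wild type under DP (log2, horizontal axis) for each measured autosomal member of 35 gene lists (1 point per gene, coloured by call), with the list median as a black bar and the number of members in brackets. Matrix proteases (median -1.53) and collagens (-1.48) stand at the top, and lysine acetyltransferases and coactivators (0.26) at the bottom.

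Inflammatory genes fell more often than they rose. Of 23 NF-kB, chemokine and inflammatory genes, 12 fell and 4 rose (median -0.80). Ccl2, which attracts monocytes, read 8.97, 8.71 and 8.75 against 5.62, 5.42 and 5.23 (-3.39 ± 0.12, adjusted p 1.11e-06). Its neighbour Ccl7 (-3.27), the neutrophil attractants Cxcl5 (-3.48) and Cxcl1 (-2.40), and Ptges (-2.60), a prostaglandin E synthase, fell with it. The 4 that rose were Icam1 (1.53), an adhesion molecule, the NF-kB subunits Relb (0.83) and Rela (0.63), and the inhibitor Nfkbia (0.22), the last not called with cyclic loess (adjusted p 0.465). Of 17 interferon-stimulated genes 3 rose and 2 fell (median 0.02), a called share of 29.4% against 43.7% of all autosomal genes. Rsad2, an antiviral enzyme, rose by 1.51 ± 0.14 and Ifit3 fell by -1.53 ± 0.20. The other 2 rises rested on less: with cyclic loess normalization Irf7 (0.54) and Irf1 (0.39) had adjusted p of 0.0591 and 0.0813, and the list then held 1 rise and 4 falls. Complement and lipoprotein genes also split, with 6 of 11 lower, led by Apod (-2.59), and 2 higher, of which Apoe, the apolipoprotein of lipid transport, rose by 2.07 ± 0.20 from 5.19, 5.98 and 6.01 to 7.70, 7.86 and 7.82.

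Genes of lipid and amino acid synthesis were mostly lower. For cholesterol and fatty acid synthesis 16 of 18 genes fell, 12 of them at least 2-fold, and none rose (median -1.08). Cyp51, lanosterol demethylase, read 9.33, 9.33 and 9.26 in wild type and 7.30, 7.16 and 6.57 in dKO (-2.30 ± 0.17, adjusted p 2.14e-05). Scd1 (-2.0), a fatty acid desaturase, Fdps (-1.64), Sqle (-1.46) and the regulators Insig1 (-1.69) and Srebf2 (-1.45) fell too, and only Acaca (-0.20) and Acly (-0.11) were not called. Of 19 targets of ATF4, the factor of the amino acid response, 14 fell and 2 rose (median -0.70). The falls held the serine enzymes Phgdh (-1.38), Psat1 (-0.93) and Shmt2 (-1.22), the amino acid transporter Slc7a5 (-1.25) and the pseudokinase Trib3 (-1.95 ± 0.11), while Atf4 itself was not called (-0.18). In the unfolded protein response 6 of 18 fell and 2 rose (median -0.14), or 8 and 1 with cyclic loess; the called share of 44.4% was that of all autosomal genes (43.7%). Xbp1 fell by -0.87 ± 0.09, and the main chaperone Hspa5 was not called (0.14). NRF2 targets and glutathione genes had 8 of 17 lower and 3 higher (median -0.19), or 11 and 2 with cyclic loess, with Gstm1 (-1.07) and Srxn1 (-1.03) lowest and Gsta4 (1.54) highest. The main counts are 47.1% lower and 17.6% higher, against 20.0% and 23.7% of all autosomal genes.

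DP binds iron, and the genes of iron handling were measured in both directions. Of 12 members 5 rose and 3 fell (median 0.11), or 3 and 3 with cyclic loess. Ncoa4, which targets ferritin for degradation, rose by 0.70 ± 0.08 and Hfe by 0.58, and the iron exporter Slc40a1 fell by -0.95 ± 0.11. Tfrc, the transferrin receptor, read 10.25, 9.97 and 9.94 in wild type and 10.19, 10.20 and 10.29 in dKO. The groups overlapped and the gene was not called (0.17, adjusted p 0.203), but without wild-type line 3 it was (0.27, adjusted p 0.0396), and the mean of its probe sets gave -0.04. Hmox1, heme oxygenase, was not called (0.24, adjusted p 0.462). Of 6 metallothionein and zinc genes 2 rose and 2 fell, between -0.75 (Slc39a14) and 0.80 (Slc30a1). Of 19 respiratory chain genes 7 rose by 0.23 to 0.47 and 1 fell, or 6 and 2 with cyclic loess, a called share of 42.1%, near that of all genes. The fall was in Ndufa4l2, a hypoxia-inducible relative of a complex subunit, which read 7.85, 8.02 and 8.34 against 4.45, 4.59 and 4.64 (-3.51 ± 0.13, adjusted p 1.24e-06).

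Cell cycle genes shifted by smaller amounts. Of 24 mitosis genes 13 fell (54.2%, against 20.0% of all autosomal genes) and none rose, none at least 2-fold (median -0.32). Tpx2, a spindle factor, fell by -0.92 ± 0.11 and Birc5, survivin, by -0.75 ± 0.08, while Mki67 (-0.14) and Cdk1 (0.14) were not called. The fall of Plk1 (-0.67) was not called without wild-type line 3 (adjusted p 0.0576) or line 5 (0.0926). Of 22 S phase genes 10 fell and 3 rose (median -0.21). This count was 15 with cyclic loess and 5 in a fit of all 12 arrays, and Tyms (-0.65) was -0.06 as a mean over its probe sets (adjusted p 0.636). Among CDK inhibitors and G1 cyclins 8 of 17 fell (47.1%) and 5 rose (29.4%), or 3 with cyclic loess. Of all autosomal genes 20.0% fell and 23.7% rose. Ccnd1, cyclin D1, read 9.91, 9.77 and 9.91 against 7.53, 7.66 and 7.31 (-2.36 ± 0.10, adjusted p 2.34e-06). The inhibitors Cdkn1c (-2.87), Cdkn2b (-1.37) and Cdkn2a (-1.13) fell, and Cdkn1a, p21, rose by 0.33. Of 19 p53 targets 10 rose (52.6%) and 4 fell (21.1%), with a median of 0.24. Trp53inp1 (1.17), Btg2 (1.14) and Perp (1.14) were highest and Gadd45a and Plk2 (both -0.90) lowest. The median was 0.07 with cyclic loess, where 9 rose, and 0.10 with probe sets averaged, where 8 rose. Ccng1, called higher, had 1 probe set called lower and was not called as a mean over its probe sets (adjusted p 0.526).

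Fewer genes rose steeply. Clu, clusterin, a secreted chaperone, read 5.93, 6.31 and 6.24 in wild type and 10.14, 10.00 and 10.29 in dKO (3.98 ± 0.12, 15.8-fold, adjusted p 6.35e-07). Atf3, a stress-induced member of the ATF/CREB family, read 5.92, 5.98 and 6.04 against 9.92, 9.61 and 10.08 (3.89 ± 0.12). Chrnb1, a subunit of the muscle acetylcholine receptor, read 5.50, 5.54 and 5.44 against 9.07, 9.04 and 9.11 (3.58 ± 0.07, adjusted p 2.29e-07). All 3 were moderately expressed in wild type and bright in every dKO line. Sort1 (3.55), a sorting receptor of the Golgi, Atp6v0e2 (3.22), a proton pump subunit, Qpct (3.18), a glutaminyl cyclase, Fabp3 (3.15), a fatty acid binding protein, and Spint2 (3.14), a protease inhibitor, followed. Hook1 (3.36), which links cargo to microtubules, Elovl7 (3.11), a fatty acid elongase, and Plekhb1 (3.06) had wild-type means within the blank range, so their rises are understated. Pcbd1 (3.06), Gstt2 (3.05), Stap2 (3.05) and Lonrf2 (3.01) close the list of 15.

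The proximal promoters of Atf3 and Chrnb1 are shown for contrast with those of Mmp13 and Mmp3. Capitals mark the GC box GGGCGG, bound by Sp factors, the letters TGACG bound by CREB proteins, and TATAAA, on either strand, with 2 overlapping GC boxes in each promoter. Both lie on the minus strand, Atf3 at chr1:191183334-191183583 and Chrnb1 at chr11:69795938-69796187, from RefSeq in GRCm38.p6.
Atf3: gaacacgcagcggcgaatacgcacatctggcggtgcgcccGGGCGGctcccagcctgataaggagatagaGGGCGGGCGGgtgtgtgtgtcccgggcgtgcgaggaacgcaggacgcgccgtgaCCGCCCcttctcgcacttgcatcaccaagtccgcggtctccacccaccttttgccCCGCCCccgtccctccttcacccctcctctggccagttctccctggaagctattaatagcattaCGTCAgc
Chrnb1: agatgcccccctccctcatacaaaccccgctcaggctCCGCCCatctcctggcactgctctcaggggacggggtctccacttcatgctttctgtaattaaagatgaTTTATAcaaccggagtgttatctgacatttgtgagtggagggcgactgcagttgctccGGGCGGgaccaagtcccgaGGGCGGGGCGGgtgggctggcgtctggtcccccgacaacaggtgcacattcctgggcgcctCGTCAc
Atf3 holds 5 GC boxes and Chrnb1 holds 4, and each has 1 TGACG, starting at -7 and -6. In all windows 52.5% held a GC box and 26.3% held TGACG. Among windows of genes that rose at least 2-fold the shares were 65.3% and 34.5%, and among those that fell at least 2-fold 55.6% and 20.5%. At 4-fold or more they were 70.5% and 24.6% for rises (61 windows) and 45.6% and 16.4% for falls (226 windows). The excess of TGACG among rises was thus absent at 4-fold. The median ratio of observed to expected CpG was 0.759 in windows of the genes that rose at least 2-fold, 0.562 in those of the genes that fell at least 2-fold, 0.468 in those of the genes that fell at least 4-fold and 0.656 in all windows. The steeper falls thus had promoters poorer in CpG, as a description of these windows.

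Immediate early genes, the first transcribed after a stimulus, moved both ways. Of 24 members 10 rose and 9 fell, with 6 and 8 past 2-fold. The rises were Atf3, Fos (1.29), Egr1 (1.22), Ccn1 (1.15), Btg2 (1.14), Ier2 (1.01), Ccn2 (0.82), Maff (0.63), Dusp1 (0.56) and Jun (0.44), of which Maff was not called in a fit of all 12 arrays (adjusted p 0.108). The falls were led by Fosl1 (-2.67 ± 0.09), Klf10 (-2.56 ± 0.14), Myc (-1.65), Egr2 (-1.62) and Klf4 (-1.48). Fos and Fosl1 both encode AP-1 subunits and went opposite ways: Fos read 7.84, 8.17 and 8.31 in wild type and 9.52, 9.04 and 9.64 in dKO, and Fosl1 8.88, 8.91 and 9.04 against 6.41, 6.26 and 6.14. CREB, the factor for which CBP is named, had targets in both directions too. Of 17 CREB targets 7 rose and 8 fell, and the median of 0.11 changed sign with cyclic loess (-0.07). Nr4a1, an orphan nuclear receptor, read 8.14, 8.27 and 8.22 in wild type against a dKO mean of 10.76, the lowest dKO line being at 10.48 (2.55 ± 0.13, adjusted p 4.04e-06), and its relative Nr4a3 was called higher (1.29), although 1 of its 3 probe sets was called lower. Pde4b, a cAMP phosphodiesterase, read 6.28, 6.34 and 6.91 against 3.78, 3.66 and 3.07 (-3.01 ± 0.22), and Dusp4 (-2.52), Id1 (-2.11) and Sik1 (-1.78) fell with it.

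Of 15 lysine acetyltransferases and coactivators 7 rose and 1, Crebbp, fell (median 0.26). The median was 0.09 with cyclic loess and 0.04 with probe sets averaged, where 5 rose. Kat2b, the acetyltransferase also called PCAF, read 8.21, 8.23 and 8.26 in wild type and 10.01, 10.06 and 10.00 in dKO (1.79 ± 0.07, adjusted p 1.5e-06). Its paralogue Kat2a overlapped between groups (0.18, adjusted p 0.306). The nuclear receptor coactivators Ncoa1 (1.71) and Ncoa2 (1.18), the acetyltransferase Kat6a (0.85), and the CREB coactivator Crtc2 (0.84) rose. As means over their probe sets Ncoa3 (0.40) and the CREB coactivator Crtc1 (0.43) were not called (adjusted p 0.873 and 0.0637), and 1 probe set of Ncoa3 was called lower. Of 12 deacetylases and bromodomain proteins 5 rose and 4 fell, or 5 and 5 with cyclic loess. Sirt1, a NAD-dependent deacetylase, read 6.36, 5.75 and 5.69 against 8.28, 8.26 and 8.42 (2.39 ± 0.17), and Brd2, a reader of acetylated histones, rose by 1.69 ± 0.08. The class IIa deacetylases Hdac9 (-0.88), Hdac7 (-0.84) and Hdac5 (-0.81) fell, though Hdac9 was not called as a mean over its probe sets (adjusted p 0.0662).

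Among 18 nuclear receptors 8 fell and 3 rose (median -0.18), with Vdr, the vitamin D receptor (-1.92 ± 0.19), and Rara, a retinoic acid receptor (-1.72 ± 0.10), lowest and Nr1h3, the oxysterol receptor, highest (0.98). Of 15 clock genes 6 fell and 3 rose: Clock rose by 1.27 ± 0.16 and its partner Arntl fell by -0.59. Of 19 genes of the Myc network and ribosome biogenesis 7 fell, led by Myc itself, and 3 rose, led by the Myc antagonist Mxd1 (1.21 ± 0.09). With cyclic loess 11 fell and 2 rose. The called shares of these lists were 61.1%, 60.0% and 52.6% in turn, against 43.7% of all autosomal genes. That 43.7% includes 3482 genes at blank level, of which only 143 were called. Of the list members, 16 of 18, 15 of 15 and 18 of 19 lay above blank level, so the comparison flatters these lists.

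HIF targets, the genes that DP is known to switch on, did not shift as 1 block. On the list of glycolysis and glucose uptake, 11 of 22 fell and 2 rose (median -0.35). Ppp1r3c, a glycogen-targeting phosphatase subunit, read 9.60, 9.88 and 10.03 in wild type and 6.97, 7.36 and 6.84 in dKO (-2.78 ± 0.16, adjusted p 6.64e-06). The glucose transporter Slc2a3 read 10.41, 10.66 and 10.89 against 9.06, 8.75 and 9.01 (-1.71 ± 0.14), and the broadly expressed transporter Slc2a1 fell less, by -0.47 ± 0.07 (adjusted p 0.001). Aldoc (-1.16), the lactate exporter Slc16a3 (-0.98), Pfkfb4 (-0.90), Gys1 (-0.83) and the hexokinases Hk1 (-0.80) and Hk2 (-0.46) also fell. In contrast Ldha (0.05, adjusted p 0.652), Pdk1 (-0.08), Aldoa (-0.07), Tpi1 (0.10) and Gapdh (0.16) were not called. Pfkfb3, which makes the activator of phosphofructokinase, was higher in dKO, at 11.07, 11.14 and 10.85 against 10.49, 10.61 and 10.39 (0.52 ± 0.10, adjusted p 0.00337), and Eno2 rose by 1.21 ± 0.14.

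On the list of other HIF targets 23 of 36 fell, 14 of them at least 2-fold, and 6 rose (median -0.57). Car12, a carbonic anhydrase of pH control, read 7.91, 8.07 and 8.12 in wild type and 4.43, 4.91 and 4.23 in dKO (-3.51 ± 0.16, 11.4-fold, adjusted p 2.77e-06). Pgf, placental growth factor, read 10.47, 10.64 and 10.55 against 7.23, 7.53 and 6.44 (-3.49 ± 0.24). Egln3, the prolyl hydroxylase induced by HIF, read 11.15, 11.18 and 11.30 against 9.06, 9.12 and 8.68 (-2.26 ± 0.12). These 3 were bright in every wild-type line, and no dKO line came near. Ndrg1 (-2.38), Hilpda (-1.94), Angptl4 (-1.87), Stc1 (-1.81), Car9 (-1.48), Adm (-1.46) and Ankrd37 (-1.34) fell at least 2-fold as well. Vegfa, the main angiogenic ligand, read 10.79, 10.86 and 10.93 against 9.99, 10.15 and 9.88 (-0.86 ± 0.09, adjusted p 0.000128). Bnip3, of mitophagy, read 11.58, 11.63 and 11.81 against 11.72, 11.69 and 11.74, with overlap (0.04, adjusted p 0.732), and Ak4 (0.22), Egln1 (-0.10) and Plod2 (-0.19) were not called either. The rises were the histone demethylases Kdm4b (0.77) and Kdm3a (0.45), with Cited2 (0.66), Bnip3l (0.34), Rora (0.27) and Insig2 (0.24). In the 12-array fit Kdm3a, Rora and Insig2 were not called (adjusted p 0.0553, 0.49 and 0.0761).

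Of 12 HIF pathway components 3 rose and 3 fell, a share near the 43.7% called among all autosomal genes, so the list as such did not stand out. Hif1a read 10.98, 10.90 and 11.10 in wild type and 10.00, 10.06 and 9.92 in dKO (-1.0 ± 0.09, adjusted p 3.92e-05). Epas1, which encodes HIF-2 alpha, went the other way, from 6.25, 6.08 and 5.90 to 7.32, 7.30 and 7.03 (1.14 ± 0.12, adjusted p 0.000111). Cited2, which competes with HIF for the same domain of CBP and p300, rose (0.66 ± 0.16), and so did Hif1an (0.60), the asparaginyl hydroxylase that blocks that contact. Vhl, which marks hydroxylated HIF for destruction, was called lower (-0.30) but not in the 12-array fit (adjusted p 0.059), and the partner subunit Arnt was not called (0.20, adjusted p 0.0885), though it was without wild-type line 5 (0.26, adjusted p 0.0397) and with an intensity trend (adjusted p 0.0431).

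The Pgf promoter is shown as that of a HIF target that stayed far below wild type. Its upstream RefSeq stretch, chr12:85177314-85177563 on the minus strand of GRCm38.p6, holds 1 match to the HIF core letters GCGTG, read on the opposite strand from -124 and capitalised, and none to ACGTG.
Pgf: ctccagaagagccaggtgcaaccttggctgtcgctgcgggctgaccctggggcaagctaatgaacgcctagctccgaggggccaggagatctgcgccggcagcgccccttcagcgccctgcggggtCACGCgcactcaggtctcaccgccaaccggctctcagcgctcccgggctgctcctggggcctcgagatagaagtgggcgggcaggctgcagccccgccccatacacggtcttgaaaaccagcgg
A 250-base stretch before the other RefSeq start of Pgf holds neither form. ACGTG was found in 22.9% of all windows and GCGTG in 43.4%.

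**Figure D4:**
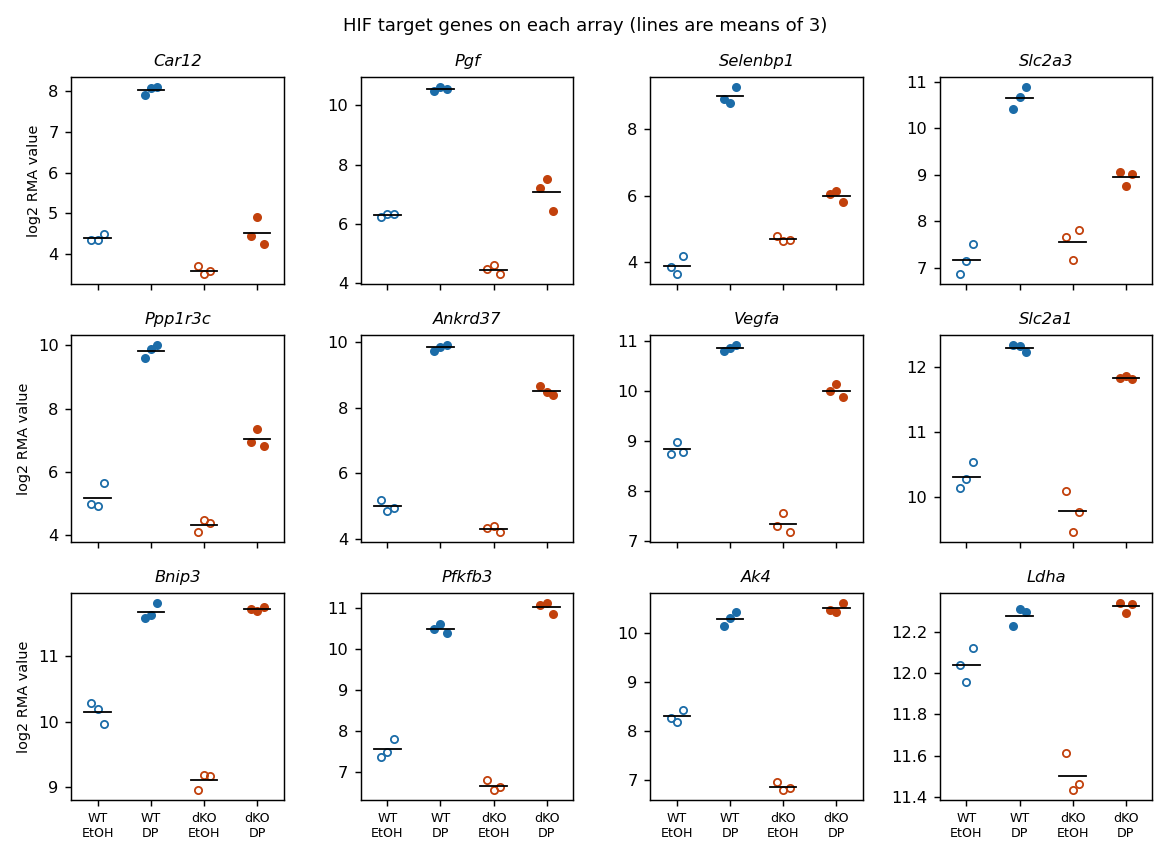
Log2 RMA value (vertical axis, scale set per gene) of 12 HIF targets on each of the 12 arrays, by genotype and treatment, with the mean of 3 as a line. Under DP, Car12, Pgf, Selenbp1, Slc2a3 and Ppp1r3c stay well below wild type in dKO, while Bnip3 and Ldha overlap with wild type, and Pfkfb3 lies above it.

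Most of the genotype difference under DP was present without DP. In ethanol 4231 genes (25.9%) were called, 2396 higher (14.7%) and 1835 lower (11.2%). Of the 7130 genes called under DP, 6850 (96.1%) differed in the same direction in ethanol and 3873 (54.3%) were called there in that direction. Of the 979 genes that fell at least 2-fold under DP, 919 (93.9%) were also called lower in ethanol, and of the 692 that rose at least 2-fold, 563 (81.4%) were called higher there. Both treatments used the same 6 lines, so these are not independent comparisons. Over autosomal genes the DP and ethanol differences correlated at r = 0.927, a description across genes that share their lines. Collagens were alike in both (median -1.48 under DP, -1.42 in ethanol), as were cholesterol genes (-1.08 and -1.13) and proteases (-1.53 and -1.65). The HIF target lists were also lower in dKO without DP. The median of the glycolysis and glucose uptake list was -0.35 under DP and -0.54 in ethanol, and that of other HIF targets -0.57 and -0.60. Within their groups, line 5 of the wild type and line 1 of the dKO stood somewhat apart in ethanol, and without both arrays 5593 genes were called in ethanol.

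The difference between treatments was tested directly on all 12 arrays. The dKO-minus-wild-type difference changed with DP for 91 genes (0.557%): it was more negative under DP for 83 (0.508%) and more positive for 8 (0.0490%). Without those 2 ethanol arrays there were 107. Of the 91, 68 were called lower under DP, 10 higher and 13 not called. Selenbp1, which encodes a selenium-binding protein, had the smallest adjusted p among the HIF targets. It read 3.87, 3.65 and 4.20 in wild-type and 4.81, 4.63 and 4.68 in dKO ethanol cultures, and 8.91, 8.80 and 9.29 against 6.05, 6.14 and 5.81 under DP. The dKO lines were thus above wild type in ethanol (0.80, adjusted p 0.00695) and far below it under DP (-3.0, adjusted p 3.24e-06), a difference of -3.80 ± 0.22 (adjusted p 1.01e-05). Selenbp2, a near-identical neighbour, gave a slightly larger difference (-3.91), and the array may not separate the pair.

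Of the 83, 6 were on a HIF target list: Selenbp1, Car12, Slc2a3, Ppp1r3c, Pgf and Gbe1. Unlike the others, Gbe1 was not called under DP (-0.18), and was higher in dKO in ethanol (1.24). Vhl, on the list of HIF pathway components, was among the 83 too. It was higher in dKO in ethanol (0.77) and lower under DP (-0.30), a difference of -1.07 ± 0.16 (adjusted p 0.00693). Car12 differed by -0.79 in ethanol and by -3.51 under DP (difference -2.71 ± 0.21, adjusted p 5e-05). Slc2a3 was not called in ethanol (0.38, adjusted p 0.262) and fell under DP (-1.71), a difference of -2.09 ± 0.28 (adjusted p 0.00279). For Egln3, Ndrg1, Hilpda, Angptl4, Stc1, Car9 and Vegfa, all lower in dKO under DP, the difference between treatments was not called. Outside the HIF lists, Cacna1h, a calcium channel subunit, gave -2.27, Dgat2, a triglyceride synthase, -1.92, and Lif, a cytokine of the IL-6 family, -1.29. For Rara the difference was -1.06 ± 0.16 (adjusted p 0.00835). Mt1, a metallothionein, was higher in dKO in ethanol (1.49) and not called under DP (0.18). Promoter windows of 300 bases existed for 65 of these 83 genes (84 windows). Of these windows 34.5% held ACGTG, against 22.9% of all windows, and 63.1% against 54.7% held ACGTG or GCGTG. Other letters differed too: TATAAA (16.7% against 9.92%) and the GC box (60.7% against 52.5%) were more frequent, and TGACG (21.4% against 26.3%) was less so. These shares are a description and were not tested.

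Of the 8 genes shifted the other way, 5 were HIF targets whose deficit in dKO was smaller under DP or gone. Bnip3, Ak4, Pfkfb3, Slc16a3 and Fam162a are on the HIF lists, and Ahr, Tnfsf9 and Prelid2 are not. Bnip3 was lower in dKO in ethanol (8.95, 9.20 and 9.18 against 10.28, 10.20 and 9.96) and level with wild type under DP, a difference of 1.08 ± 0.15 (adjusted p 0.00527). Ak4, an adenylate kinase, went from -1.43 in ethanol to 0.22 under DP, and Pfkfb3 from -0.89 to 0.52 (difference 1.41 ± 0.18, adjusted p 0.0025). Ahr, the dioxin receptor, followed from a different pattern: the dKO level was low in both treatments (4.07 and 4.16) and the wild-type mean was 7.34 in ethanol and 5.72 under DP. Fos was likewise alike in dKO (9.23 and 9.40) while wild type read 6.14 in ethanol and 8.11 under DP, so its dKO excess went from 3.09 to 1.29 (difference -1.80 ± 0.28, adjusted p 0.0082). The excess of Mxd1 was also smaller under DP (-0.83), and that of the probe set used for Nr4a3 (-1.14).

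**Figure D5:**
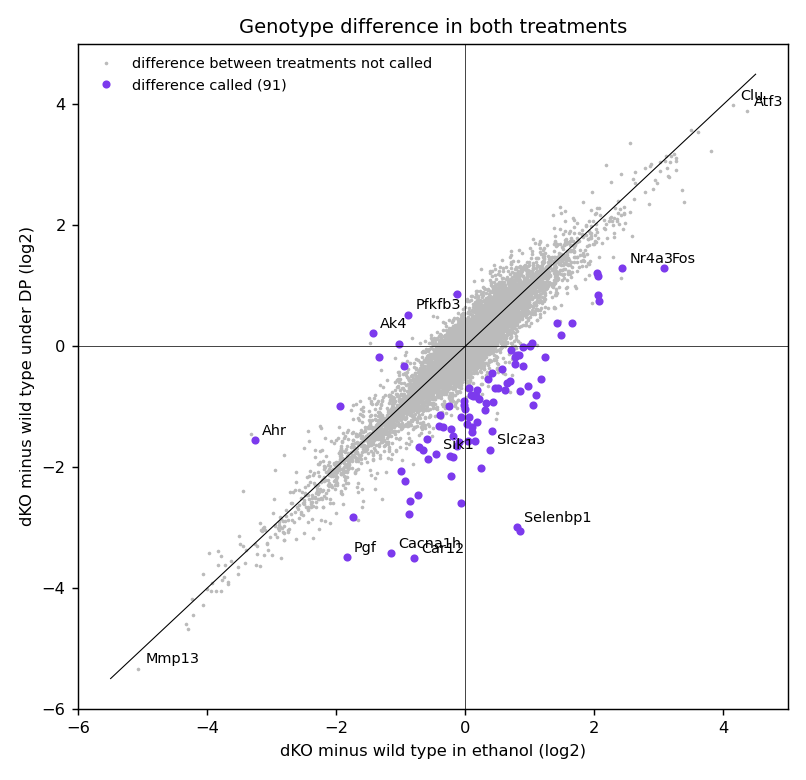
Difference dKO minus wild type under DP (vertical axis, log2) against the same difference in ethanol (horizontal axis), 1 point per autosomal gene, with the 91 genes whose difference changed between treatments in violet; the diagonal marks equal differences. Mmp13, Clu and Atf3 lie near the diagonal, while Selenbp1, Car12 and Pgf lie below it and Ak4, Pfkfb3 and Ahr above it.

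The dKO lines were less alike than the wild-type lines for the genes that fell. Among the 979 genes lower at least 2-fold, the median SD over 3 lines was 0.21 in dKO and 0.14 in wild type, whereas over all 12846 genes above blank level it was 0.11 and 0.10. Line 6 was the lowest of the 3 dKO lines for 700 of the 979 (71.5%) and line 5 the highest for 572 (58.4%), against 39.1% and 41.0% of the genes above blank level. Aspn, asporin, is an example, at 6.91, 7.11 and 4.93 in dKO lines 1, 5 and 6 against 9.72 to 9.77 in wild type (-3.43 ± 0.50), as is Ptn, at 9.08, 9.56 and 7.75 against 10.58 to 10.95. Among the 692 genes higher at least 2-fold the SD was 0.10 in dKO and 0.14 in wild type, and no line took most of the extremes. In each set the larger SD was in the genotype with the lower median level. That level was 5.81 in dKO against 7.73 for falls, and 6.04 in wild type against 7.48 for rises. The part of signal level in the spread was not tested.

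Markers of the labelled cell type were present in both genotypes and lower in dKO. Of 12 fibroblast markers 11 fell and Twist1 was not called. Thy1, a fibroblast surface marker, read 12.31, 12.32 and 12.19 against 10.09, 10.02 and 9.42 (-2.43), and Vim, vimentin, stayed bright in dKO at 12.37 to 12.53 (-0.72). The mean level over the 12 markers was 9.81 to 10.0 in wild type and 7.84 to 8.30 in dKO. No list of another cell type was higher in dKO. Of 6 macrophage markers 4 fell and 1 rose (mean level 4.56 to 5.22 in wild type and 4.05 to 4.36 in dKO). Lyz2, lysozyme, read 6.93, 8.52 and 8.63 in wild-type lines 3, 4 and 5 and 4.76, 5.14 and 3.41 in dKO, Tyrobp read 3.43, 5.14 and 5.10 in wild type, and Cd68 rose (1.38), while Ptprc, which marks all leukocytes, was at blank level throughout. Of 6 epithelial markers 4 fell, with Krt18 at -1.94 and Krt19 at -1.25. Of 6 endothelial markers 1 fell and Pecam1, Tek and Tie1 were at blank level. Among neural markers Tubb3 (-3.14) and Stmn2 fell and Sox2, Elavl4 and Gfap were at blank level. Of 6 skeletal muscle markers Acta1 (-3.20) and Des (-1.24) fell and Myod1 was at blank level. Of 4 cartilage markers Sox9 (-2.92) and Acan (-0.96) fell and Matn1 was at blank level. Of 5 smooth muscle markers 4 fell, and the mean level was 9.40 to 9.51 in wild type and 7.74 to 8.37 in dKO. Of 4 adipocyte markers Fabp4 (-1.97) and Pparg (-0.53) fell. Of 4 erythroid markers Klf1 (-0.28) fell and Alas2 was at blank level, and Hba-a1, a globin, read 7.06 in wild-type line 5 against 3.95 and 3.93 in lines 3 and 4 and was not called. The part of other cell types in the falls was not tested.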

How the data were processed

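Biotin-labelled cRNA from 100 ng of total RNA was read on Affymetrix mouse arrays. Per the submitters' processing notes, the log2 values deposited by the authors are RMA output of Expression Console 1.1 (Affymetrix). RMA subtracts background, equalises arrays and combines probes, and it compresses changes of dim genes. The number of arrays limits the precision. Of 45141 probe sets, 104 controls were set aside, 28898 with 1 listed gene symbol were kept, while 551 listing more than 1 symbol and 15588 without any were dropped. Symbols were updated by gene identifier where possible (28689), and each of 17097 genes was represented by its brightest probe set (mean of 12 arrays). Of these, 16328 lie on the 19 autosomes of the GRCm38.p6 gene table. Blank level means a group mean no higher than the 95th percentile over 20 blank probe sets.

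limma 3.58.1 in R 4.3.3 (lmFit and eBayes) was fitted to the 6 DP arrays, separately to the 6 ethanol arrays, and to all 12 for the difference between treatments, with p-values adjusted over the 17097 genes. On simulated data for the comparison under DP, 86% of genes changed by 1 log2 unit and 42% of those changed by 0.5 were recovered, with 13 false calls among 177. Only 50 of 17097 genes were changed at each size there, a far smaller share than was called in the data. The adjusted p depends on that share, so these rates need not hold for the real comparison. The remaining steps ran in Python 3.11.15 (matplotlib 3.10.9, numpy 2.4.6, pandas 2.3.3). The 35 gene lists (634 autosomal genes measured), members and tests were chosen with earlier results of these data known. Genes were named by a rule: among called genes without overlap, the 15 that rose most and the 15 that fell most whose higher group mean exceeded blank level, up to 4 called members of largest change per list, and preset genes such as Tfrc, Vegfa and Kat2b. Further list members, Selenbp2, Cacna1h, Dgat2, Lif, Mt1, Ahr and the marker genes were named after their values were seen. Promoter sequences are from RefSeq; 12989 of the 16328 genes had a window.

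Alternatives changed the fit (12 arrays together, with the line blocked or not, array weights, robust eBayes, an intensity trend), the scaling (median centring, cyclic loess), the genes (the dimmest 40% dropped, probe sets averaged, adjustment over autosomal genes, at least 1.5-fold) or the arrays (each left out). Dropping the pair of ethanol arrays that stood apart was added after seeing the data.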

Additional observations from a re-analysis of the deposited data

Results flagged for a closer look

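For 10 of the named genes the dKO-minus-wild-type difference itself differed between DP and ethanol by the limma test on all 12 arrays. The difference (DP minus ethanol, log2) was -3.80 for Selenbp1, -2.71 for Car12, -2.09 for Slc2a3, -1.92 for Ppp1r3c, -1.80 for Fos, -1.65 for Pgf, -1.06 for Rara and -0.83 for Mxd1. It was positive for Bnip3 (1.08) and Pfkfb3 (1.41). The adjusted p of Mxd1 (0.037) and Pgf (0.0236) was closest to the threshold.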

How the results depend on the processing

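For the genes that the naming rule chose, the direction of each of the 171 called under DP was kept in all alternatives tried, and 165 stayed called in each. The 6 that did not were Hdac9 and Tyms (mean of probe sets), Irf7 (cyclic loess, and without wild-type line 4, adjusted p 0.0571), Irf1 (cyclic loess), Plk1 (without wild-type line 3 or 5) and Ndufs1 (all 12 arrays, adjusted p 0.0554). Of all 509 called list members, 396 stayed called in every alternative that tested them and 5 changed direction as a mean over probe sets, Insr, Edem1, Psmd11, Rpl13 and Sgsh (-0.10, -0.16, -0.07, 0.09 and -0.01). The count of genes called under DP ran from 5819 to 7402 over the fits and from 6170 to 6540 when each array was left out in turn. With a minimum of 1.5-fold it was 3662 (1925 higher, 1737 lower), because 1.5-fold removes the many small calls. Higher genes made up 54.2% of calls, 46.8% with cyclic loess and 59.8% with median centring, and the cause was not tested. Leaving out each array gave 2852 to 4435 calls in ethanol and 66 to 103 for the difference between treatments. Wild-type and dKO lines could not be paired with each other, because they share only the number 5, which does not mark a shared embryo. The DP and ethanol arrays of a line can be paired, which the main test of the difference between treatments (91 genes) did not do. With the MEF line as a random replicate block over all 12 arrays 5819 genes were called under DP and 5506 in ethanol, and with the line as a fixed block 85 genes were called for the difference. Sex, the beta-actin 3' to 5' signal and genotype cannot be told apart, and changes near blank level are understated.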

Other observations

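Histone genes, chosen as a list after the data were seen, were higher in dKO under DP: 16 of 25 replication-dependent and variant histone genes rose and none fell (median 0.77). H2bc18 (2.94), H3c15 (2.91), H3c7 (2.13) and H4c8 (2.02) rose most, and the variants H3f3b (0.60), H3f3a (0.48) and H2ax (0.83) rose less. Copies of these genes are near-identical in sequence, so a probe set may read several of them, and in ethanol 18 rose and 1 fell. With cyclic loess 16 rose and 1 fell.

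Lysosome and proton pump genes, also listed after the data were seen, rose in 36 of 52 cases and fell in 3 (median 0.44). Besides Atp6v0e2 (3.22), the pump subunits Atp6v0b (1.27), Atp6v1e1 (1.1) and Atp6v1b2 (1.06) rose, as did Rragd (2.80), a GTPase of amino acid sensing at the lysosome, Mcoln1 (1.01), its calcium channel, and the protease Ctsf (1.42). The proteases Ctsb (-0.25) and Ctsd (-0.19) were not called. Of 61 cytosolic ribosomal protein genes 10 fell (16.4%, against 20.0% of all autosomal genes) and 1 rose (median -0.07). Of 38 proteasome subunit genes 10 rose (26.3%, near the 23.7% of all autosomal genes) and 2 fell (median 0.12), a split that became 4 and 4 with cyclic loess.

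Within 5 Mb on either side of Crebbp on chromosome 16, 45 measured genes included 21 that rose and 6 that fell, or 60.0% called against 43.7% of all autosomal genes. The latter share includes the genes at blank level. The granzyme genes Gzme (-3.77) and Gzmd (-3.55) and the mast cell protease Mcpt8 (-3.64) were among the steepest falls, and Tmem119 (-3.62) stood beside them. These 4 were picked after their values were seen.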
